A study of Schizosaccharomyces pombe with 16 samples.

Results

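The polysome fraction of growing wild-type fission yeast was compared with total RNA of the same experiments, to see which mRNAs and which other RNAs were over- or under-represented on polysomes. The comparison rests on 4 of the 16 libraries of the series, 2 of total RNA (WT 0 h total) and 2 of polysomal RNA (WT 0 h polysomes), chosen by their labels. The replicates come from 2 experiments only. The p-values measure the spread between replicates, estimated over all 16 libraries and without pairing total and polysomal RNA by experiment. The cells were Schizosaccharomyces pombe of the wild-type strain 972, untreated, taken in exponential phase in the rich medium YES (0 h). The labels mark each library as of experiment A or B, and total and polysomal RNA with the same replicate number carry the same letter. The 4 libraries held 14048961 and 16814647 counts in total RNA and 12303596 and 20522997 in polysomes. Total and polysomal RNA of 0 h cells of the strain eIF2α.S52A, in which the serine of the translation initiation factor eIF2α that is phosphorylated under stress is replaced by alanine, served as 4 libraries of the same kind from another strain.

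A polysome is an mRNA with several ribosomes on it, and polysomes sediment faster in a sucrose gradient than free mRNA or single ribosomes. How much of an mRNA is found there depends on how often ribosomes start on it, how long they stay and how much room its coding sequence gives them. Ribosomal protein mRNAs are among the most abundant mRNAs of growing yeast, and AUG codons upstream of the coding sequence are known to catch scanning ribosomes. The libraries were made from poly(A) RNA, so ribosomal, transfer and small nuclear RNAs appear in them at trace levels, and their values are not a measure of ribosome content.

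Of 7014 genes in the table, 6170 had enough counts to be tested, and 2272 of them (36.8%) differed between polysomes and total RNA at an adjusted p under 0.05. In polysomes 1138 genes (18.4%) were higher and 1134 (18.4%) were lower. Each of the 2272 moved in the same direction in experiments A and B, which is no separate check, since the same libraries gave the calls. At least 2-fold differences were seen for 734 of the higher and 717 of the lower genes, and at least 4-fold differences for 152 and 143. All levels are CPM, the counts of a gene relative to the scaled size of its library, after scaling by TMM, which sets the bulk of the genes to no change, so that higher or lower means relative to the middle of all genes, whose median log2 difference was -0.05. When libraries were scaled by their total counts alone, the median of all genes shifted by -1.16 on the log2 scale and the calls became 200 higher and 3962 lower. Only differences relative to other genes can be read from these counts, not the total amount of RNA on polysomes. With 1 library left out at a time the calls numbered 1381 without total replicate 1, 1580 without total replicate 2, 1598 without polysome replicate 1 and 1717 without polysome replicate 2.

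**Figure D1:**
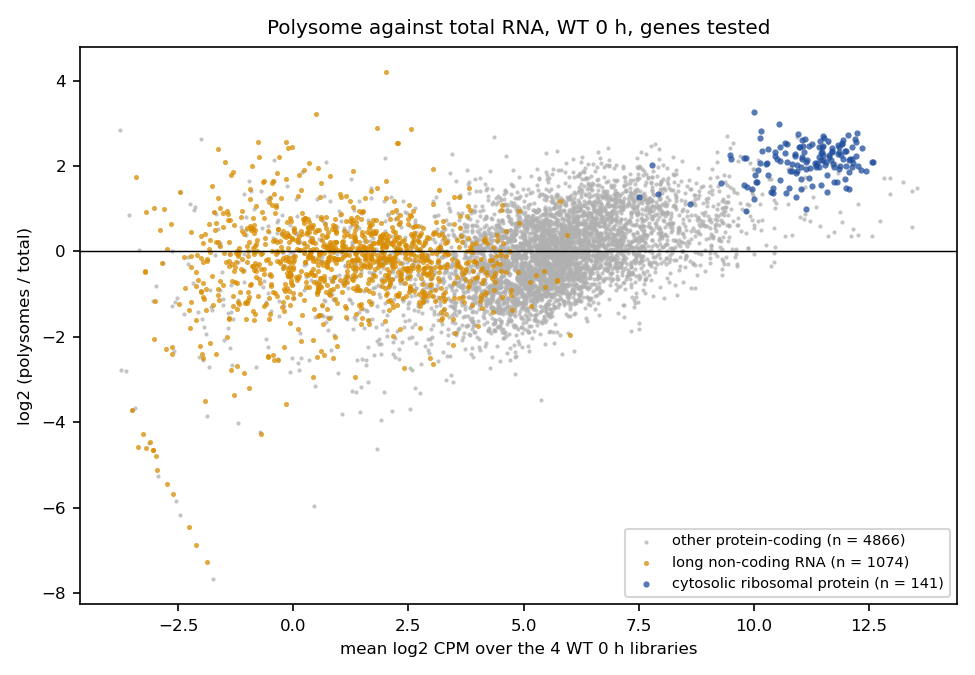
Each point is a protein-coding gene or long non-coding RNA among the 6170 tested. Its mean log2 CPM over the 4 WT 0 h libraries is on the x axis and its log2 difference of polysomes over total RNA on the y axis. Structural RNAs, rRNAs, tRNAs, mitochondrially encoded genes and pseudogenes are not drawn. The 141 cytosolic ribosomal protein genes (blue) sit at high levels and between 0.94 and 3.25, and the 1074 long non-coding RNAs (orange) sit at low levels on both sides of 0.

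Of the 23 gene lists looked at, that of the ribosomal proteins had the highest median in polysomes. The counts of each list are to be read beside the 18.4% higher and 18.4% lower among all genes tested. Of the 141 genes for cytosolic ribosomal proteins 140 were higher and none was lower, with a median log2 difference of 2.13 against -0.05 for all genes tested. These genes took 24.4% and 25.8% of all counts in total RNA and 48.1% and 49.8% in polysomes (95% Wilson intervals within 0.0279 percentage points of each share, covering counting error only). In each of the 141 genes both polysome libraries lay above both total libraries. With 1 library left out, 134 to 138 of them were called. The exception was rps2502, a small-subunit protein gene, with 1609.6 and 1607 CPM in total RNA and 2448 and 3966 CPM in polysomes (log2 difference 1.0 ± 0.39, adjusted p = 0.0627), and it passed with experiment as a block in the model (replicate block, adjusted p = 0.0297).

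The acidic proteins of the ribosomal stalk, which recruit elongation factors, stood at the top of the list, with 7 of 7 genes higher and a median of 2.54. rpp203 had 338 and 343 CPM in total RNA and 4099 and 2394 CPM in polysomes. Both polysome values lay above both total values, and the 9.54-fold difference was the largest among protein-coding genes whose mean log2 CPM reached 4 (log2 difference 3.25 ± 0.39, adjusted p = 0.000119). rpp103 stood at 536 and 535 CPM in total RNA and 5293 and 3195 CPM in polysomes (log2 difference 2.99 ± 0.33, adjusted p = 8.55e-05), and rpp102 at 747 and 803 CPM in total RNA and 6165 and 4209 CPM in polysomes (log2 difference 2.74 ± 0.28, adjusted p = 7.86e-05). In the small subunit, where 54 of 55 genes were higher with a median of 2.01, rps23 had 1815 and 1861 CPM in total RNA and 13461 and 11603 CPM in polysomes, a 6.82-fold difference (log2 difference 2.77 ± 0.30, adjusted p = 8.55e-05). The values of rps1002 were 430.0 and 438 CPM in total RNA and 3735 and 2382 CPM in polysomes (log2 difference 2.82 ± 0.33, adjusted p = 0.000114). All 76 genes of the large subunit were higher, with a median of 2.16, among them rpl42 with 1554 and 1709 CPM in total RNA and 12463 and 9305 CPM in polysomes (log2 difference 2.74 ± 0.31, adjusted p = 0.000103) and rpl8 with 2944 and 2911 CPM in total RNA and 12626 and 12276 CPM in polysomes (log2 difference 2.09 ± 0.26, adjusted p = 0.000126). At the low end of the large subunit lay rpl302, picked out after its value was seen (log2 difference 0.94 ± 0.32, adjusted p = 0.0352), a call lost with any of the 4 libraries left out (adjusted p from 0.063 to 0.156). Many ribosomal proteins of fission yeast come from pairs of nearly identical genes, so how reads were divided within a pair is uncertain.

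Of the 12 protein-coding genes with the largest rises among those whose mean log2 CPM reached 4 (well-expressed genes), 9 encode ribosomal proteins, and all 12 had coding sequences between 321 and 1080 nt. The other 3 were egd2, gln1 and mmf2. egd2, a subunit of the nascent polypeptide-associated complex that binds new chains at the ribosome, had 777 and 776 CPM in total RNA and 5778 and 4222 CPM in polysomes (log2 difference 2.69 ± 0.30, adjusted p = 9.80e-05). gln1, glutamine synthetase, had 307 and 253 CPM in total RNA and 2593 and 1064 CPM in polysomes (log2 difference 2.71 ± 0.50, adjusted p = 0.00132), with polysome replicates more than 2-fold apart and both above total RNA. mmf2, annotated in isoleucine biosynthesis, had 15.8 and 5.13 CPM in total RNA and 115 and 18.6 CPM in polysomes, with the polysome value of experiment B barely above the total value of experiment A (log2 difference 2.67 ± 0.93, adjusted p = 0.0395). The call of mmf2 was lost without total replicate 1 (adjusted p = 0.058), total replicate 2 (0.212) or polysome replicate 1 (0.546). cpc2, the RACK1 protein of the small subunit and not part of the ribosomal protein list, was 3.32-fold higher, with 4177 and 3803 CPM in total RNA and 13721 and 12759.7 CPM in polysomes (log2 difference 1.73 ± 0.30, adjusted p = 0.000834).

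Factors that act on the ribosome moved the same way, by less. All 9 elongation factor genes were higher in polysomes, with a median of 1.28 and a range from 0.73 to 2.07. tef5, the exchange factor EF-1β, had 1713 and 1679 CPM in total RNA and 7000.2 and 7289 CPM in polysomes (log2 difference 2.07 ± 0.33, adjusted p = 0.000479). tef103, which makes the tRNA-delivering factor EF-1α, held about 1% of polysomal counts (0.999% and 0.820%) against 0.604% and 0.657% of total counts, and its scaled level was 3.27-fold higher (log2 difference 1.71 ± 0.29, adjusted p = 0.000696). Of the 27 initiation factor genes 17 were higher and none was lower, with a median of 0.86. sui1, eIF1, which watches over start codon choice, had 547 and 514 CPM in total RNA and 2086 and 1936 CPM in polysomes (log2 difference 1.92 ± 0.22, adjusted p = 0.000103). tif45, the cap-binding eIF4E, stood at 229.8 and 261 CPM in total RNA and 791 and 708 CPM in polysomes (log2 difference 1.61 ± 0.23, adjusted p = 0.000294). tif211, the gene of eIF2α itself, had 490.4 and 495 CPM in total RNA and 1236 and 1291 CPM in polysomes, a 2.56-fold difference (log2 difference 1.36 ± 0.21, adjusted p = 0.00037). By contrast tif1, the helicase eIF4A and the most abundant initiation factor mRNA, had 2281 and 2238 CPM in total RNA and 3198 and 3609 CPM in polysomes and did not pass the test (log2 difference 0.59 ± 0.24, adjusted p = 0.0734). With 1 library left out, the calls fell to 5, 4 and 5 elongation factor genes without total replicate 1, total replicate 2 and polysome replicate 1, and to 7, 10 and 11 initiation factor genes without total replicate 1, total replicate 2 and polysome replicate 2.

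**Figure D2:**
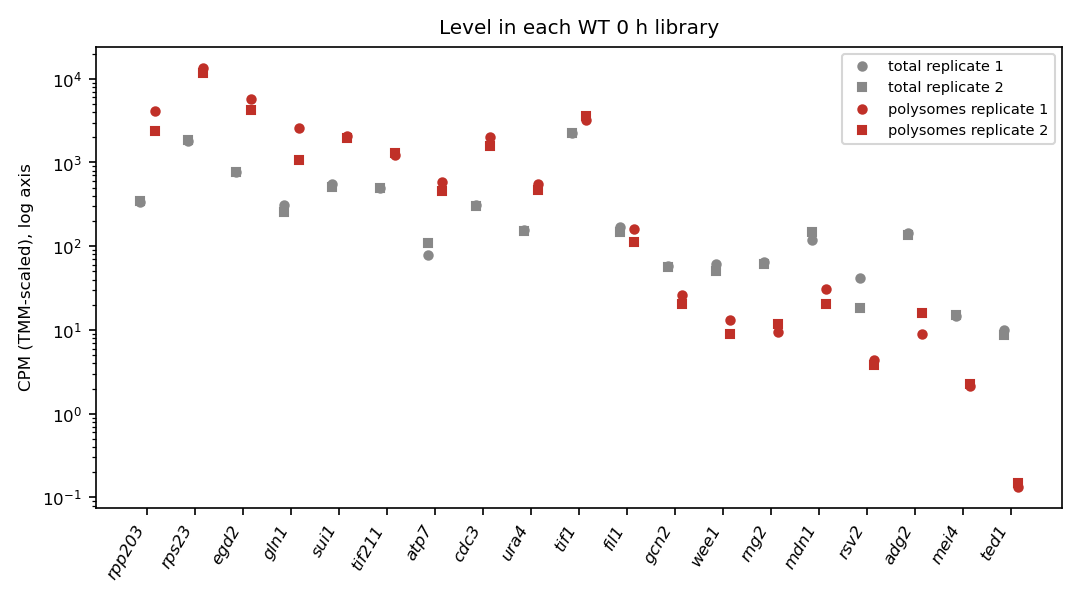
The level of 19 genes in each of the 4 WT 0 h libraries, in TMM-scaled CPM on a log axis, with total RNA in grey and polysomes in red, circles for replicate 1 and squares for replicate 2. For the genes at the left the polysome values lie above the total values (rpp203 at 4099 and 2394 over 338 and 343), and for gcn2 and the genes to its right they lie below.

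Ribosome biogenesis factors, which make and fold the rRNA in the nucleolus, were less uniform. Of 96 tested 33 were higher, 3 were lower and 60 were not called, with a median of 0.58. nop52, a nucleolar protein, had 66.9 and 94.5 CPM in total RNA and 268 and 273 CPM in polysomes (log2 difference 1.74 ± 0.33, adjusted p = 0.0016). nsa2, of the large-subunit pathway, had 144 and 168 CPM in total RNA and 508 and 477 CPM in polysomes (log2 difference 1.66 ± 0.31, adjusted p = 0.00152). fib1, the rRNA methyltransferase fibrillarin, was 2.60-fold higher (log2 difference 1.38 ± 0.32, adjusted p = 0.00543), whereas gar2, the nucleolin-like protein and the most abundant mRNA of the list, had 719 and 830.1 CPM in total RNA and 1368 and 1203 CPM in polysomes (log2 difference 0.73 ± 0.28, adjusted p = 0.0613, or 0.0287 with the replicate block). The count of higher genes was 14 without total replicate 1. The 3 lower ones were utp20 (-1.33 ± 0.29), bms1 (-0.81 ± 0.28) and noc3 (-0.73 ± 0.20), named after their values were seen, all of ribosome assembly. bms1 lost its call with any of the 4 libraries left out (adjusted p from 0.0597 to 0.196), and noc3 without total replicate 2 (0.0943) or polysome replicate 2 (0.073). mdn1, the giant ATPase midasin that strips factors from new large subunits and is annotated with a coding sequence of 14154 nt, was also lower and not on that list. It had 118 and 147 CPM in total RNA and 30.5 and 20.2 CPM in polysomes, 5.24-fold down in polysomes (log2 difference -2.39 ± 0.33, adjusted p = 0.000239).

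The aminoacyl-tRNA synthetases, which charge tRNAs with amino acids, held calls in both directions. Of 36 tested, 5 were higher (13.9%) and 6 lower (16.7%), with a median of 0.03. Among all genes 18.4% were called each way, so these counts are no result about the list. Of the 14 whose product is annotated as mitochondrial 5 were lower and 0 higher (median -0.29), and of 18 annotated as cytoplasmic 5 were higher and 1 lower (median 0.45). This split was made after the values were seen. ism1, the mitochondrial isoleucine enzyme, had 44.4 and 44.9 CPM in total RNA and 14.8 and 20.8 CPM in polysomes (log2 difference -1.32 ± 0.21, adjusted p = 0.000447), and vrs2, the mitochondrial valine enzyme, had 52.8 and 60.9 CPM in total RNA and 22.9 and 28.7 CPM in polysomes (log2 difference -1.14 ± 0.30, adjusted p = 0.0102). gus1, the cytoplasmic glutamate enzyme, had 494 and 487 CPM in total RNA and 873 and 623 CPM in polysomes and did not pass (log2 difference 0.61 ± 0.25, adjusted p = 0.0748). The higher calls numbered 0 without polysome replicate 1 and 1 without either total library, and 8 with the replicate block, and vrs2 lost its call without total replicate 2 (adjusted p = 0.0585) or polysome replicate 1 (0.0791).

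Nuclear genes for the mitochondrial respiratory chain and ATP synthase were enriched in polysomes. Of 45 genes 31 were higher and none was lower, with a median of 1.11. Small subunits of the ATP synthase had some of the largest differences of the list. atp7 had 77.8 and 109 CPM in total RNA and 587 and 452 CPM in polysomes, 5.56-fold apart (log2 difference 2.47 ± 0.37, adjusted p = 0.000375), atp19 stood at 42.0 and 56.8 CPM in total RNA and 279 and 248 CPM in polysomes (log2 difference 2.41 ± 0.26, adjusted p = 8.55e-05) and atp18 at 51.3 and 58.7 CPM in total RNA and 263 and 223 CPM in polysomes (log2 difference 2.15 ± 0.30, adjusted p = 0.000226). The copper chaperone gene cox17 had 26.1 and 22.4 CPM in total RNA and 163 and 83.9 CPM in polysomes (log2 difference 2.34 ± 0.46, adjusted p = 0.00202). The 2 most abundant mRNAs of the list did not pass the test: atp2 had 688 and 774 CPM in total RNA and 755 and 1282 CPM in polysomes (log2 difference 0.48 ± 0.32, adjusted p = 0.279) and sdh1, of succinate dehydrogenase, 648 and 470.3 CPM in total RNA and 882 and 506 CPM in polysomes (log2 difference 0.31 ± 0.39, adjusted p = 0.573). Mitochondrial ribosomal proteins, made in the cytosol and imported, gave 43 higher and 2 lower genes of 74, with a median of 0.71. Among them mrpl22 had 38.7 and 46.8 CPM in total RNA and 138 and 138 CPM in polysomes (log2 difference 1.69 ± 0.21, adjusted p = 0.000131) and mrp2 54.1 and 57.9 CPM in total RNA and 174 and 157 CPM in polysomes (log2 difference 1.56 ± 0.16, adjusted p = 8.55e-05). mrpl20 was among the 2 lower ones (log2 difference -1.82 ± 0.66, adjusted p = 0.0484), a call lost without either total library (adjusted p = 0.15 and 0.0929) or without polysome replicate 1 (0.252). Without total replicate 1 the higher genes numbered 28 in the ribosomal list, the fewest of any library left out, and 21 in the respiratory list, again the fewest. Both lists hold short genes, with median coding lengths of 532.5 nt (mitochondrial ribosomal) and 504 nt (respiratory). Protein-coding genes of 99 to 630 nt, without the cytosolic ribosomal ones, had a median of 0.68, with 45.8% higher. Whether the lists differ from genes of their length was not tested.

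Proteasome genes, which encode the protease that breaks down ubiquitin-tagged proteins, were higher for 23 of 36 and lower for 1 (median 0.92). rpn15, a small lid subunit, had 129.5 and 142 CPM in total RNA and 381 and 427 CPM in polysomes (log2 difference 1.57 ± 0.17, adjusted p = 8.55e-05), and pup2, of the 20S core, had 196 and 173 CPM in total RNA and 581 and 429 CPM in polysomes (log2 difference 1.45 ± 0.27, adjusted p = 0.00134). The lower one was rpn2, the large base subunit (log2 difference -0.97 ± 0.31, adjusted p = 0.027), named after its value was seen. Its call was lost without total replicate 1 (adjusted p = 0.106), total replicate 2 (0.0718) or polysome replicate 2 (0.18). The higher proteasome calls fell to 14 without total replicate 1, total replicate 2 or polysome replicate 1. Of 73 genes of amino acid biosynthesis 21 were higher and 2 lower (median 0.42). his5, of histidine synthesis, had 158 and 179 CPM in total RNA and 649 and 540.1 CPM in polysomes (log2 difference 1.82 ± 0.27, adjusted p = 0.000346), and gdh2, the NAD-dependent glutamate dehydrogenase, was lower, with 21.8 and 19.3 CPM in total RNA and 8.26 and 4.78 CPM in polysomes (log2 difference -1.68 ± 0.25, adjusted p = 0.000367). These 21 became 12 without total replicate 2 or polysome replicate 1, and 14 without total replicate 1, and the 2 lower ones became 4 with the replicate block. Histone genes were higher for 6 of 10 and lower for none (median 1.14). hhf1, a gene of histone H4, had 446 and 442 CPM in total RNA and 1054 and 1133 CPM in polysomes (log2 difference 1.30 ± 0.28, adjusted p = 0.00376), and htb1, the H2B gene and the most abundant of them, had 1383 and 1333 CPM in total RNA and 1212 and 1695 CPM in polysomes (log2 difference 0.10 ± 0.46, adjusted p = 0.892). Genes of the same histone can share near-identical coding sequences. The higher histone calls numbered 3 without total replicate 1 or polysome replicate 2 and 4 without total replicate 2.

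Glycolysis supplied the most abundant single mRNAs on polysomes. fba1, the aldolase, took 1.53% and 1.02% of polysomal counts against 1.12% and 0.960% of total counts, and eno101, enolase, took 1.46% and 0.876% against 1.13% and 0.868%. Of 18 genes of glycolysis and fermentation 3 were higher (16.7%) and none was lower (median 0.53). Among all genes 18.4% were higher, so the count is no result about these genes. tpi1, triosephosphate isomerase, had 5299 and 4647 CPM in total RNA and 10979.9 and 14211 CPM in polysomes (log2 difference 1.34 ± 0.26, adjusted p = 0.002). gpm1, phosphoglycerate mutase, had 5946 and 5012 CPM in total RNA and 17266 and 16822 CPM in polysomes (log2 difference 1.64 ± 0.40, adjusted p = 0.00717). fba1 was 2.78-fold higher (log2 difference 1.48 ± 0.45, adjusted p = 0.0226), and eno101 did not pass (log2 difference 1.41 ± 0.52, adjusted p = 0.052). eno101 passed with the replicate block (adjusted p = 0.00728) and without polysome replicate 2 (0.0475). tdh1, glyceraldehyde-3-phosphate dehydrogenase, had 10855 and 7423 CPM in total RNA and 13924 and 13426 CPM in polysomes (log2 difference 0.58 ± 0.51, adjusted p = 0.41), and its total libraries were the ones far apart. The call of gpm1 was lost without total replicate 2 (adjusted p = 0.0601), and that of fba1 without total replicate 1 (0.0769), total replicate 2 (0.129) or polysome replicate 1 (0.153). The higher calls of the list numbered 1 without total replicate 2, 2 without total replicate 1 or polysome replicate 1 and 5 with the replicate block.

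**Figure D3:**
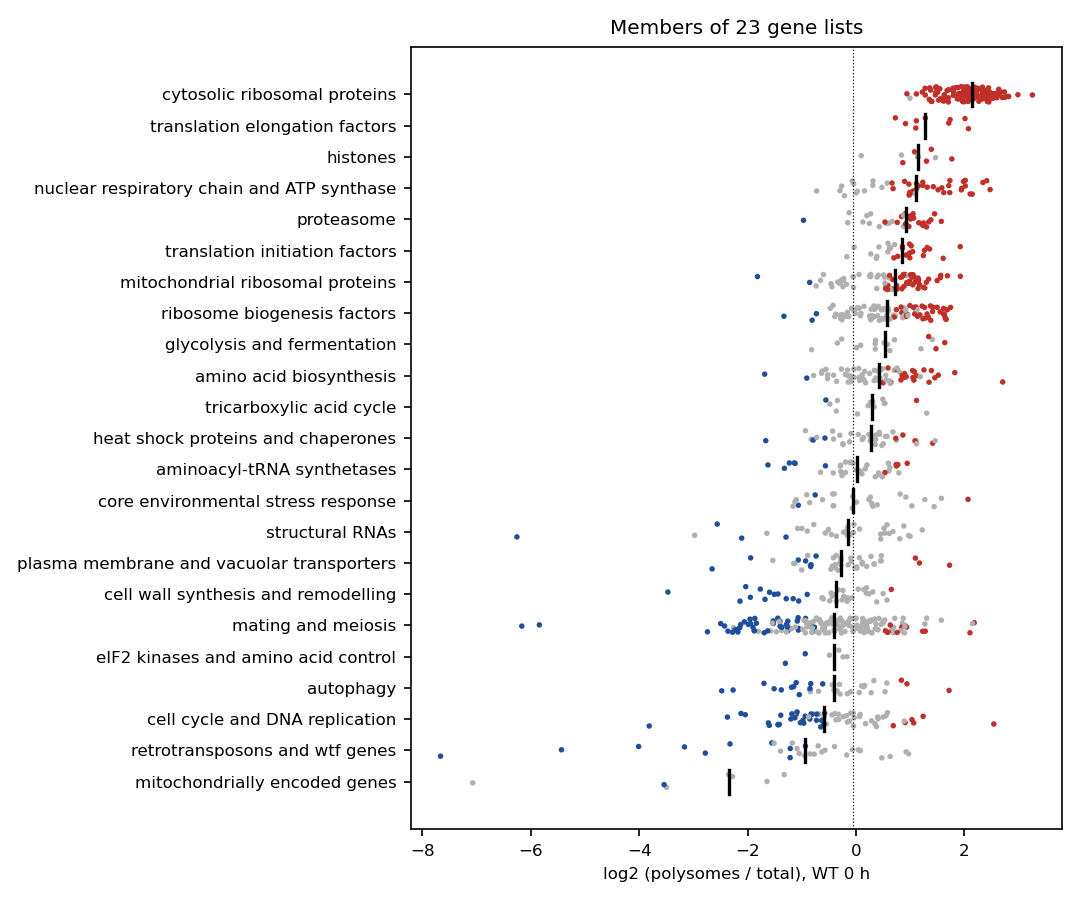
The log2 difference of polysomes over total RNA (x axis) of each tested member of the 23 gene lists, with a black bar at the list's median and a dotted line at the median of all genes (-0.05). Members called higher are red, called lower blue and not called grey; cytosolic ribosomal proteins lie highest (median 2.13) and mitochondrially encoded genes lowest (median -2.35).

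The 12 largest falls among well-expressed protein-coding genes ranged from -3.47 to -2.33 on the log2 scale, and their coding sequences from 552 to 14154 nt with a median of 2703 nt, against 407 nt for the 12 largest rises. adg2, a gene of the daughter-cell separation program, had 145 and 137 CPM in total RNA and 9.06 and 16 CPM in polysomes, a 11.1-fold fall (log2 difference -3.47 ± 0.43, adjusted p = 0.000139). clg1, a cyclin-like protein, had 77.9 and 79.7 CPM in total RNA and 6.93 and 14.1 CPM in polysomes (log2 difference -2.88 ± 0.54, adjusted p = 0.00141). rng2, the IQGAP scaffold of the contractile ring, had 64.1 and 61.3 CPM in total RNA and 9.46 and 11.9 CPM in polysomes (log2 difference -2.54 ± 0.23, adjusted p = 7.43e-05). tra2, the scaffold of the NuA4 acetyltransferase complex, with 10968 nt of coding sequence, had 65.6 and 69.1 CPM in total RNA and 10.5 and 13.8 CPM in polysomes (log2 difference -2.46 ± 0.20, adjusted p = 7.43e-05). dhc1, the dynein heavy chain, had 64.7 and 31.9 CPM in total RNA and 11.5 and 6.33 CPM in polysomes (log2 difference -2.46 ± 0.51, adjusted p = 0.00263). For each of these both polysome libraries lay below both total libraries.

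Cell wall genes were lower for 13 of 41 and higher for 1 (median -0.36), and the lower ones included the glucan synthases bgs1, bgs3, bgs4 and ags1. bgs3, a β-1,3-glucan synthase, had 106 and 107 CPM in total RNA and 25.9 and 22.6 CPM in polysomes (log2 difference -2.14 ± 0.27, adjusted p = 0.000148), and mok11, an α-1,3-glucan synthase, had 47.7 and 48.7 CPM in total RNA and 11.9 and 11.7 CPM in polysomes (log2 difference -2.03 ± 0.19, adjusted p = 7.43e-05). ecm33, the most abundant wall mRNA, and gas2, which remodels glucan, did not pass the test (0.38 with adjusted p = 0.151, and 0.24 with adjusted p = 0.509). With 1 library left out 12 or 13 were lower, and the higher one, gmh6, a galactosyltransferase, lost its call with any of the 4 libraries left out.

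Of 66 genes of the cell cycle and DNA replication 28 were lower and 6 higher (median -0.58). wee1, the kinase that holds back entry into mitosis, had 62.0 and 51.0 CPM in total RNA and 13.1 and 8.98 CPM in polysomes, 5.17-fold down (log2 difference -2.37 ± 0.27, adjusted p = 0.000105). mis6, a centromere protein, had 9.64 and 9.21 CPM in total RNA and 0.133 and 1.03 CPM in polysomes (log2 difference -3.81 ± 0.76, adjusted p = 0.00218), and mis18, a kinetochore protein, 9.79 and 11.3 CPM in total RNA and 2.40 and 2.43 CPM in polysomes (log2 difference -2.12 ± 0.34, adjusted p = 0.000535). cdc25, the phosphatase that opposes wee1, was lower too (log2 difference -1.43 ± 0.25, adjusted p = 0.000991, named after its value was seen). The largest rises in the list were cdc3, profilin, with 315 and 304 CPM in total RNA and 2022 and 1585 CPM in polysomes (log2 difference 2.54 ± 0.25, adjusted p = 7.43e-05), and cdc8, tropomyosin, with 350.1 and 302 CPM in total RNA and 783 and 757 CPM in polysomes (log2 difference 1.24 ± 0.26, adjusted p = 0.00309), both short actin-binding proteins. The lower calls numbered 19 or 20 with 1 library left out, 19 without total replicate 1.

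Genes of mating and meiosis, which are kept low in growing cells, were lower for 44 of 174 and higher for 11 (median -0.40), and many members of this list named for meiotic induction have other known functions. mei4, the meiotic forkhead factor, had 14.6 and 15 CPM in total RNA and 2.13 and 2.28 CPM in polysomes, 6.68-fold down (log2 difference -2.74 ± 0.36, adjusted p = 0.000173). mug24, an RNA-binding protein, had 2.75 and 2.22 CPM in total RNA and 0.533 and 0.368 CPM in polysomes (log2 difference -2.50 ± 0.63, adjusted p = 0.00887), a call lost without polysome replicate 2 (adjusted p = 0.0857). ste13, the RNA helicase of mRNA decay and the most abundant member, had 363 and 342 CPM in total RNA and 481 and 351 CPM in polysomes (log2 difference 0.24 ± 0.21, adjusted p = 0.41). The lower calls were 27 without polysome replicate 1, the fewest of any library left out, and the higher calls 3 without either total library, 6 without polysome replicate 1 and 7 without polysome replicate 2.

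Autophagy genes, which serve bulk breakdown in the vacuole, were lower for 12 of 33 and higher for 3 (median -0.41). atg2, a lipid transfer protein of the growing membrane, had 36.4 and 27.9 CPM in total RNA and 6.66 and 6.70 CPM in polysomes (log2 difference -2.27 ± 0.25, adjusted p = 8.55e-05), and atg38, of the lipid kinase complex, had 80.0 and 58.5 CPM in total RNA and 7.73 and 16.7 CPM in polysomes (log2 difference -2.48 ± 0.55, adjusted p = 0.00424). atg12, a ubiquitin-like modifier, moved the other way, with 8.31 and 10.1 CPM in total RNA and 30.4 and 30.1 CPM in polysomes (log2 difference 1.72 ± 0.20, adjusted p = 0.000105), and atg8, the lipid-linked marker of autophagosomes, had 37.7 and 30.5 CPM in total RNA and 45.6 and 40.3 CPM in polysomes (log2 difference 0.33 ± 0.31, adjusted p = 0.445). The lower calls of autophagy genes fell to 7 without polysome replicate 2. Core stress genes showed no common direction, with 1 higher and 2 lower of 27 (median -0.06), and heat shock proteins and chaperones gave 4 higher and 3 lower of 40 (median 0.28). Transporters of the plasma membrane and vacuole gave 3 higher and 7 lower of 43 (median -0.28), with zrt1, the zinc importer, higher at 112 and 92.9 CPM in total RNA and 435 and 242 CPM in polysomes (log2 difference 1.73 ± 0.33, adjusted p = 0.0018) and mfs1, a transporter of the major facilitator family, lower at 107 and 59.1 CPM in total RNA and 28.4 and 15.2 CPM in polysomes (log2 difference -1.94 ± 0.38, adjusted p = 0.00194). In these 3 lists each count of calls is small and changed with single libraries, the lower chaperone calls to 0 without polysome replicate 1. Their shares were at most 10% higher (chaperones) and 16.3% lower (transporters), below the 18.4% each way among all genes. The lower transporter calls numbered 2 without total replicate 1. The tricarboxylic acid cycle gave 1 higher and 1 lower of 14 (7.14% each way, median 0.29), and the lower call was lost with any of the 4 libraries left out. Its median was 0.12 without total replicate 2. With the replicate block the calls were 4 higher and 2 lower in the tricarboxylic acid cycle, 4 higher among core stress genes and 5 higher among autophagy genes.

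Retrotransposons and wtf genes, a family that includes spore-killing meiotic drivers, were lower for 10 of 30 tested and higher for none (median -0.94, or -0.89 with genes at 0 counts in polysomes set to their bound). Some wtf members, wtf8 among them, are annotated as pseudogenes and are counted among the pseudogenes below as well. wtf8 had 3.62 and 2.66 CPM in total RNA and 0.533 and 0.221 CPM in polysomes (log2 difference -3.16 ± 0.68, adjusted p = 0.00351), and wtf14, the most abundant, had 42.2 and 33.2 CPM in total RNA and 72.2 and 44.7 CPM in polysomes (log2 difference 0.63 ± 0.28, adjusted p = 0.102, or 0.0244 with the replicate block and 0.0414 without polysome replicate 2). Tf2 copies are nearly identical to each other, so counts of a single copy are uncertain. The lower calls of this list numbered 4 without polysome replicate 2, 5 without total replicate 1 and 6 without polysome replicate 1, and wtf8 lost its call without polysome replicate 2 (adjusted p = 0.0533).

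Of 6 genes of eIF2 signalling 2 were lower and none was higher (median -0.40), beside 18.4% lower among all genes, so the count is no result about these genes. gcn2, the eIF2 kinase that senses uncharged tRNA, had 57.6 and 57.2 CPM in total RNA and 26.4 and 20.3 CPM in polysomes, 2.47-fold down (log2 difference -1.30 ± 0.28, adjusted p = 0.00355). hri2, a second eIF2 kinase, had 34.3 and 32.8 CPM in total RNA and 18.0 and 17.1 CPM in polysomes (log2 difference -0.94 ± 0.30, adjusted p = 0.0295), a call lost with any of the 4 libraries left out (adjusted p from 0.0807 to 0.124). hri1 had 30.1 and 19.7 CPM in total RNA and 22.1 and 18.0 CPM in polysomes (log2 difference -0.31 ± 0.46, adjusted p = 0.637). fil1, the transcription factor that drives amino acid genes, had 171 and 149.8 CPM in total RNA and 159 and 113 CPM in polysomes (log2 difference -0.24 ± 0.26, adjusted p = 0.517). rsv2 and ura4 are not among these 6 genes. rsv2, a stress transcription factor, had 42.2 and 18.3 CPM in total RNA and 4.40 and 3.83 CPM in polysomes and was 7.39-fold down, with total replicates more than 2-fold apart (log2 difference -2.89 ± 0.57, adjusted p = 0.00211). ura4, of uracil synthesis, had 156 and 153 CPM in total RNA and 551 and 468 CPM in polysomes (log2 difference 1.72 ± 0.23, adjusted p = 0.000182).

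Coding length ordered the protein-coding genes more clearly than any other property looked at. Lengths were taken from the RefSeq annotation of ASM294v3 for 4990 of the 5007 protein-coding genes tested. Without the ribosomal protein genes, the shortest of 5 equal groups of coding sequences (99 to 630 nt) had a median log2 difference of 0.68, with 45.8% of genes higher and 5.15% lower. The next groups had medians of 0.42 (633 to 990 nt), 0.06 (993 to 1389 nt) and -0.32 (1392 to 1995 nt), and the longest group (1998 to 14775 nt) had a median of -0.74, with 0.723% higher and 54.4% lower. The order of the 5 medians was the same in experiment A (0.64, 0.37, 0.00, -0.32 and -0.68) and in experiment B (0.81, 0.45, 0.06, -0.30 and -0.79). This order is a description, since the genes share the same 4 libraries. Ribosomal protein genes, with a median coding length of 447 nt and a median difference of 2.13, stood above the shortest group of other genes (0.68). Histone genes (median length 397.5 nt, median difference 1.14) and the mitochondrial ribosomal protein genes (532.5 nt, 0.71) are short as well.

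AUG codons in the annotated leader, the stretch before the coding sequence, went with lower values. Without ribosomal protein genes and among 4364 genes with an annotated leader, the 2730 genes with 0 AUGs in the leader had a median of 0.22, with 26.9% higher and 14.4% lower. The 846 genes with 1 had a median of -0.28, the 590 genes with 2 or 3 had -0.45, and the 198 genes with 4 or more had -0.71, with 4.04% higher and 49.5% lower. The same direction held within groups by coding length, though leader length was not held constant there. Within each of the 5 groups by coding length, the genes with at least 1 upstream AUG had the lower median, 0.38 against 0.96 in the shortest group, -0.13 against 0.21 in the middle group and -0.88 against -0.55 in the longest. Leader length itself gave a shallower gradient, from 0.24 in the group with the shortest leaders (2 to 37 nt) to -0.38 in the group with the longest (250 to 2778 nt). The number of introns gave medians of -0.11, 0.03 and 0.02 for 0, 1 and 2 or more. The most abundant of 5 equal groups of mRNAs other than ribosomal protein mRNAs, by level in total RNA, had a median of 0.33, and the 4 others had medians between -0.20 and -0.06. Since the level in total RNA is part of the difference itself, no more is read from that order.

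**Figure D4:**
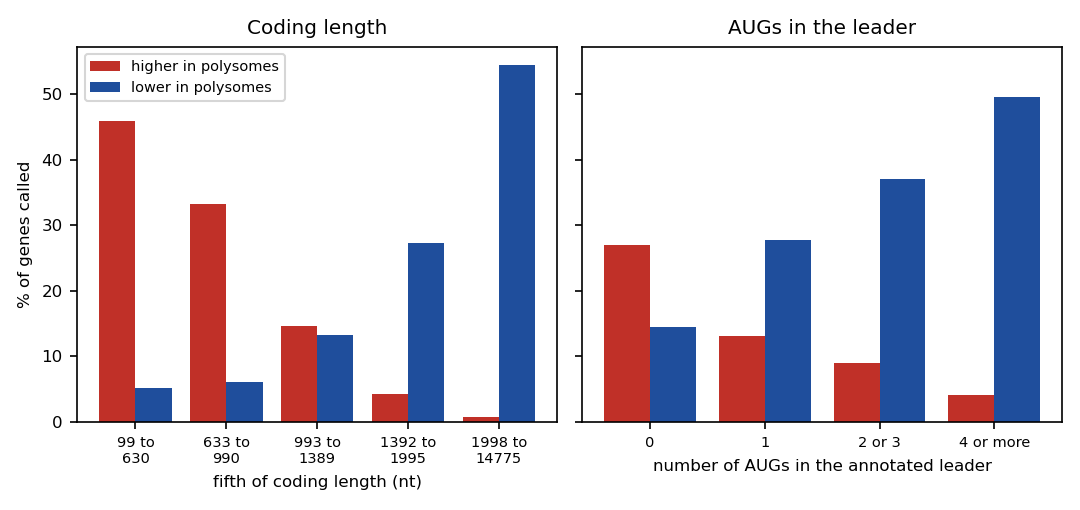
The share of protein-coding genes called higher (red) or lower (blue) in polysomes, in percent, by 5 equal groups of coding length (left) and by the number of AUGs in the annotated leader (right), without ribosomal protein genes. The share of lower genes climbs from 5.15% in the shortest group to 54.4% in the longest, and from 14.4% with 0 AUGs to 49.5% with 4 or more.

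Long non-coding RNAs were a smaller share of polysomal than of total counts. Together 1529 such RNAs took 0.791% and 0.832% of total counts and 0.294% and 0.311% of polysomal counts. On the scale relative to other genes the 1074 that could be tested had a median log2 difference of -0.17. Of these 38 were higher (3.5%), 91 lower (8.5%) and 945 not called. Their levels were low, with a median of 2.51 CPM in total RNA against 51.6 CPM for protein-coding genes. Both shares of calls lay below the 18.4% each way among all genes tested, so the counts show no excess of calls in either direction. By kind, the median was -0.12 for 632 antisense RNAs, with 28 higher (4.4%) and 51 lower (8.1%). It was -0.26 for 370 intergenic RNAs, with 8 higher (2.2%) and 34 lower (9.2%). Pseudogenes had a median of -0.89 (-0.66 with genes at 0 counts set to their bound), with 8 of 22 lower and none higher. With 1 library left out, the lower calls among long non-coding RNAs numbered 41 without total replicate 1, 46 without either polysome library and 56 without total replicate 2, and the higher calls 19, 27, 30 and 23 without total replicate 1, polysome replicate 1, polysome replicate 2 and total replicate 2. The lower pseudogene calls were 4 without polysome replicate 2.

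The largest rise of any RNA was in an antisense RNA, meu26-antisense-1, with 1.07 and 0.767 CPM in total RNA and 18.1 and 15.6 CPM in polysomes, 18.3-fold higher (log2 difference 4.19 ± 0.36, adjusted p = 7.43e-05). kpa1-antisense-1 stood at 2.60 and 1.86 CPM in total RNA and 21.5 and 11.1 CPM in polysomes (log2 difference 2.86 ± 0.48, adjusted p = 0.000752), SPCC330.13-antisense-1 at 2.50 and 1.45 CPM in total RNA and 12.1 and 10.7 CPM in polysomes (log2 difference 2.53 ± 0.45, adjusted p = 0.00107), and vps4-antisense-1 at 8.72 and 7.99 CPM in total RNA and 28.1 and 19.1 CPM in polysomes (log2 difference 1.49 ± 0.31, adjusted p = 0.0028). The intergenic RNAs SPNCRNA.1432 (log2 difference 2.53 ± 0.55, adjusted p = 0.00353) and SPNCRNA.698 (log2 difference 1.93 ± 0.39, adjusted p = 0.00245) completed the 6 rises named here. They are the largest only among non-coding RNAs whose mean log2 CPM reached 2. Outside these 6, an intergenic RNA had a log2 difference of 3.21, so the 6 do not stand for all large rises. In the annotation of ASM294v3 each of these 6 RNAs overlaps a protein-coding gene on its own strand: tif212, an eIF2 subunit gene, for meu26-antisense-1, swp1 for kpa1-antisense-1, sdh3 for SPCC330.13-antisense-1, ptc3 for vps4-antisense-1, the histone gene hhf2 for SPNCRNA.1432 and tim10 for SPNCRNA.698. The table notes all 6 as possible alternative UTRs. Reads of genes that overlap on the same strand cannot be told apart here. Of those mRNAs tif212 (0.99 ± 0.31), sdh3 (1.12 ± 0.22) and tim10 (1.18 ± 0.21) were called higher themselves, with tif212 losing its call without total replicate 1 (adjusted p = 0.121), total replicate 2 (0.0884) or polysome replicate 2 (0.152). By contrast swp1 (0.32 ± 0.25), ptc3 (0.08 ± 0.26) and hhf2 (1.47 ± 0.56) were not called. hhf2 passed with the replicate block (adjusted p = 0.0152) and without polysome replicate 1 (0.0456). Over the 1063 tested long non-coding RNAs found in that annotation, 129 (12.1%) overlap a gene on the same strand. The share was 31.6% of the 38 called higher (12 RNAs) and 20.5% of the 88 called lower (18 RNAs).

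Among non-coding RNAs whose mean log2 CPM reached 2, 4 of the 6 largest falls overlap no protein-coding gene on their own strand. Scarcer non-coding RNAs could fall further, such as SPNCRNA.511 (log2 difference -4.27 ± 1.05). The largest of the 6, SPNCRNA.964, had 20.9 and 7.71 CPM in total RNA and 2.40 and 1.91 CPM in polysomes (log2 difference -2.74 ± 0.67). It overlaps tif51 on its own strand, which was higher in polysomes (log2 difference 1.74 ± 0.39). SPNCRNA.388 had 20.1 and 20.7 CPM in total RNA and 3.07 and 3.46 CPM in polysomes, 6.21-fold down (log2 difference -2.63 ± 0.30, adjusted p = 9.80e-05). crp79-antisense-1 had 24.8 and 23.1 CPM in total RNA and 4.26 and 6.04 CPM in polysomes (log2 difference -2.20 ± 0.38, adjusted p = 0.000947), and the gene it lies across, crp79, of meiosis, was lower as well (log2 difference -2.06 ± 0.62, adjusted p = 0.0214), a call lost without either total library (adjusted p = 0.0746 and 0.0556) or polysome replicate 1 (0.119). meu7-antisense-1 had 22.3 and 18.8 CPM in total RNA and 1.6 and 5.37 CPM in polysomes (log2 difference -2.49 ± 0.60, adjusted p = 0.0066), a call lost without polysome replicate 1 (adjusted p = 0.054). SPNCRNA.1626 was the most abundant of them, with 183 and 86.3 CPM in total RNA and 46.1 and 23.6 CPM in polysomes (log2 difference -1.96 ± 0.52, adjusted p = 0.0108), a call lost without total replicate 1 (adjusted p = 0.111) or polysome replicate 2 (0.0935). sme2, the meiotic RNA that holds the meiosis regulator Mei2 at its gene, had 3.37 and 3.43 CPM in total RNA and 1.47 and 1.25 CPM in polysomes (log2 difference -1.33 ± 0.47, adjusted p = 0.0438), a call lost with any of the 4 libraries left out (adjusted p from 0.112 to 0.192).

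Few RNAs were absent from polysomes. Of 5751 RNAs with a mean of at least 1 CPM in total RNA, 14 had at most 3 counts in each of the polysome libraries, where 3 counts are worth 0.400 CPM in replicate 1 and 0.221 CPM in replicate 2. They were 5 protein-coding genes, 5 intergenic RNAs, 1 antisense RNA, 1 pseudogene and 2 mitochondrially encoded genes. The clearest was ted1, a predicted phosphatase gene (SPAC23A1.02c), with 194 and 217 counts in total RNA and 1 and 2 counts in polysomes (log2 difference -5.96 ± 0.76, adjusted p = 0.000153). In eIF2α.S52A cells ted1 had 158 and 223 counts in total RNA and 2 and 0 in polysomes. SPAP27G11.16, a gene of unknown function, had 58 and 62 counts in total RNA and 0 and 3 in polysomes, and the intergenic RNA SPNCRNA.511 had 62 and 61 against 0 and 3. vta1, of endosomal sorting, had 39 and 35 counts against 3 and 3, a call lost without polysome replicate 2 (adjusted p = 0.0729). 3 RNAs had 0 counts in both polysome libraries: the retrotransposon Tf2-13 (44 and 21 counts in total RNA, at least 4.98-fold lower, against a floor of 3 counts per library), the intergenic RNA SPNCRNA.1246 (22 and 30 counts, at least 3.76-fold lower) and the mitochondrial atp9 (19 and 26 counts, at least 3.25-fold lower). In the opposite direction, 2 RNAs with at least 1 CPM in polysomes had at most 3 counts in each total library.

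Mitochondrially encoded mRNAs, which are translated by ribosomes inside the organelle, were low in polysomes. The 36 mitochondrially encoded genes other than rRNAs together had 526 and 482 counts in total RNA and 42 and 32 in polysomes, 0.00374% and 0.00287% against 0.000341% and 0.000156% of all counts. Of 7 that could be tested 7 had values below 0 and 1 was called, with a median of -2.35 (-2.27 with atp9 at its bound). With the replicate block 5 of the 7 were lower. SPMIT.06, an endonuclease reading frame, had 13.7 and 9.97 CPM in total RNA and 1.6 and 0.589 CPM in polysomes (log2 difference -3.54 ± 1.02, adjusted p = 0.017), a call lost without total replicate 1 (adjusted p = 0.0621) or polysome replicate 2 (0.132). cox1, of cytochrome oxidase, had 6.78 and 4.0 CPM in total RNA and 2.40 and 1.18 CPM in polysomes and did not pass (log2 difference -1.64 ± 0.93, adjusted p = 0.193), but passed with the replicate block (adjusted p = 0.0257). The rRNAs of the mitochondrial ribosome, which this poly(A) protocol caught at higher levels, differed widely between the polysome replicates: 21S_rRNA had 126 and 82.2 CPM in total RNA and 125 and 30.1 CPM in polysomes (log2 difference -0.43 ± 0.98, adjusted p = 0.774).

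Structural RNAs were too scarce after poly(A) selection for most comparisons. They held between 0.00945% and 0.0363% of counts. Of 34 tested 4 small nucleolar RNAs were lower (11.8%) and none was higher (median -0.16). Among all genes 18.4% were lower, so the count of lower ones is no result about the list. The lower calls numbered 1 without total replicate 2 or polysome replicate 2 and 2 without polysome replicate 1. The median was 0.76 in experiment A and -0.98 in experiment B, so the experiments disagreed on the direction of the list. snoR39b had 4.18 and 4.08 CPM in total RNA and 0.533 and 0.810 CPM in polysomes (log2 difference -2.56 ± 0.66, adjusted p = 0.00954) and snr79 19.8 and 22.6 CPM in total RNA and 10.3 and 7.21 CPM in polysomes (log2 difference -1.29 ± 0.37, adjusted p = 0.0167), calls lost without polysome replicate 1 for the former (adjusted p = 0.0638) and without total replicate 2 (0.0766) or polysome replicate 2 (0.124) for the latter. rrk1, the RNA of RNase P, had 12 and 20.3 CPM in total RNA and 27.9 and 20.4 CPM in polysomes (log2 difference 0.57 ± 0.41, adjusted p = 0.303). ter1, the telomerase RNA, had 15.3 and 16.1 CPM in total RNA and 7.86 and 10.3 CPM in polysomes (log2 difference -0.78 ± 0.29, adjusted p = 0.0519, or 0.0404 with the replicate block). srp7, the RNA of the signal recognition particle, which binds ribosomes, had 3.16 and 2.83 CPM in total RNA and 2.93 and 0.221 CPM in polysomes (log2 difference -1.08 ± 0.94, adjusted p = 0.407), with the polysome replicates far apart, and it passed without polysome replicate 1 (adjusted p = 0.0462).

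The 4 libraries of eIF2α.S52A cells at 0 h are separate from the WT libraries and gave mostly the same directions. In them 2749 of 6170 genes (44.6%) were called, 1365 higher and 1384 lower. Of the 2272 WT calls 2266 had the same sign in eIF2α.S52A cells and 2063 were called there in the same direction, which is 90.8% of the WT calls and 75% of the eIF2α.S52A calls. The labels of both strains carry the same experiment letters, A and B. The median of the ribosomal protein genes was 2.72 in eIF2α.S52A cells and 2.13 in WT cells, that of the elongation factors 1.79 and 1.28, and that of autophagy genes -0.61 and -0.41. ted1 had a log2 difference of -5.91 ± 0.82 and rpp203 one of 4.01 ± 0.41. Tested gene by gene, the polysome-to-total difference of eIF2α.S52A cells against that of WT cells was called for 0 of 6170 genes (0%) by edgeR, with 136 genes at an unadjusted p under 0.05, and for 0 genes by DESeq2, with 178. For rpp203 the strain difference was 0.75 ± 0.51 on the log2 scale (adjusted p = 1), which does not show that the strains were alike.

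**Figure D5:**
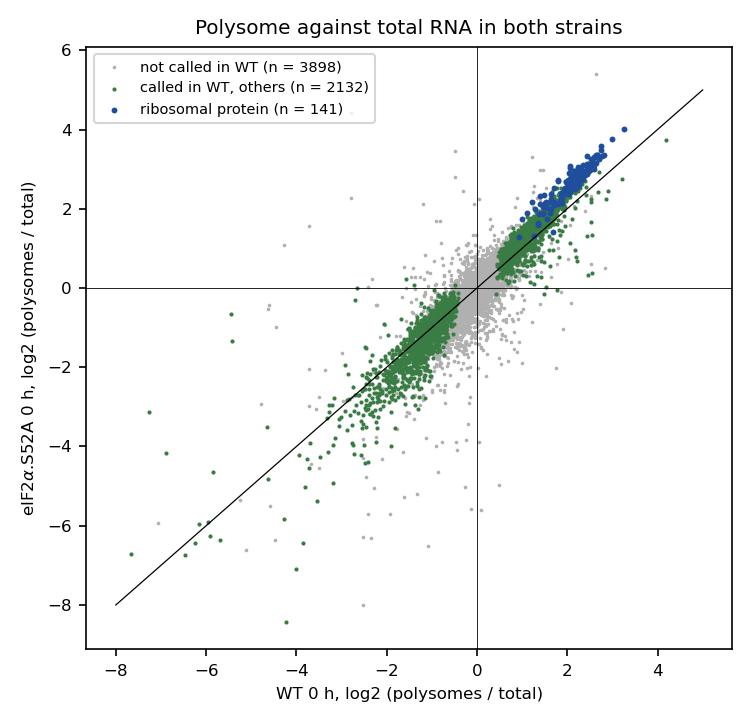
The log2 difference of polysomes over total RNA at 0 h in WT cells (x axis) and in eIF2α.S52A cells (y axis) for the 6170 genes tested, with the diagonal of equal values. Genes called in WT (2132 in green, beside the 141 ribosomal protein genes in blue) lie almost all in the quadrants of equal sign, 2266 of 2272 calls, and the blue points centre above the diagonal (medians 2.72 and 2.13).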

How the data were processed

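Total and polysomal RNA of fission yeast were sequenced as stranded poly(A) libraries. Per the study's methods reads were mapped by the authors to ASM294v2 (STAR), indexed (SAMtools) and counted per gene by strand (QoRTs), and these raw counts were deposited. Their versions are not given in sources used here. A second deposited table holds counts normalized with DESeq2 within each fraction and was not used. The deposited counts of all 16 libraries (8 groups of 2) were fitted with edgeR 4.0.16 (R 4.3.3, limma 3.58.1) after TMM scaling and filterByExpr, and 6170 of 7014 genes were tested with the quasi-likelihood F-test. The Benjamini-Hochberg adjustment covered all tested genes, with a threshold of 0.05. The residual degrees of freedom were 8, the common dispersion was 0.0585 and ± is the standard error. In simulated counts total and polysomal RNA of WT 0 h shared a common mean for every gene except the seeded ones. There the test recovered 89 of 100 genes changed 4-fold and 36 of 100 changed 2-fold, with 8 false calls among 6153 genes. In the data 36.8% of genes were called, and the simulated libraries were drawn independently, so these rates need not hold for the real comparison.

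A rule took the 12 largest rises and falls of protein-coding genes (mean log2 CPM from 4 up) and the 6 of non-coding RNAs (from 2 up). It also took up to 4 called and 2 most abundant members of each of 23 lists, the 10 largest shares in polysomes and the top 5 absent RNAs. Set structural RNAs and genes the study names were added, and the text leaves out some genes that the rule takes. The others named (rps2502, rpl302, utp20, bms1, noc3, rpn2, gmh6, bgs1, bgs4, ags1, cdc25, crp79, atp9, SPNCRNA.1246, 21S_rRNA and the genes that overlap non-coding RNAs) were chosen after their values were seen. The members and lists were chosen with earlier results of these data known. Of the gene IDs 6846 matched the RefSeq annotation of ASM294v3, used for names, coding lengths, leaders and same-strand overlap, and 44 rows whose name and ID disagreed were named by ID. By product, 36 genes were left out of lists. The labels tie replicate numbers to experiments A and B, and the deviations of replicate 1 from replicate 2 in total RNA and in polysomes correlated at 0.432 across 6170 genes. The alternatives were RLE scaling, library-size scaling, TMM without ribosomal protein genes, no filter, DESeq2 1.42.0, a replicate block, the 4 libraries alone and leaving out each library.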

Additional observations from a re-analysis of the deposited data

How the results depend on the processing

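The 2272 genes called between polysomes and total RNA of WT cells became 2268 with RLE scaling, 2283 with TMM factors from genes other than ribosomal protein genes, 2246 without the filter on low counts, 2537 with DESeq2, 2399 with the 4 libraries alone and 2739 with the replicate block, and 1381 to 1717 with 1 library left out. Of these, 2271 calls were shared in direction with the replicate block. The block changed the calls given beside gar2, eno101, wtf14, cox1, ter1, rps2502 and hhf2 and that of atp9 (adjusted p = 0.0263), and no other call of a gene named in the text. Scaling by library size alone gave 4162 calls in WT and 4863 in eIF2α.S52A cells and left 2 of 23 list medians above 0, against 13 otherwise and 13 or 14 with 1 library left out. That scaling lowers every gene by about the same amount, 1.16 on the log2 scale at the median (a shift of -1.16), and relative to the median of all genes each of the 23 lists stayed on its side. Under it these genes turned negative: tif1 (-0.58), gus1 (-0.57), sdh1 (-0.87), sdh3 (-0.058), ecm33 (-0.79), gas2 (-0.93), ste13 (-0.94), atg8 (-0.84), ptc3 (-1.08), tif212 (-0.17), rpl302 (-0.23), gmh6 (-0.52), swp1 (-0.84), gar2 (-0.45), atp2 (-0.68), htb1 (-1.06), wtf14 (-0.55), tdh1 (-0.59), rrk1 (-0.62) and rps2502 (-0.16). In eIF2α.S52A cells the calls ran from 1951 to 2378 with 1 library left out, and were 3160 with the replicate block. The difference between the strains gave 0 calls under each alternative run. Mitochondrially encoded genes had 526 and 482 counts in total RNA and 42 and 32 in polysomes, which limits the precision of their values.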
